A study of Mus musculus with 16 samples.

Results

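Inflammasome and IL-1 family genes were followed in the terminal ileum of mice by taking all rows of the transcript table whose name, without its last hyphenated part, was one of 10 gene symbols. These 10 genes had 35 of the 59258 transcripts and were 10 of the 23299 genes in the table. They comprised the cytokine genes *Il18* and *Il1b*, their antagonists *Il18bp* and *Il1rn*, the sensors *Nlrp6* and *Nlrp3*, the adaptor *Pycard*, the caspases *Casp1* and *Casp4*, and the pore former *Gsdmd*. RNA had been sequenced on the Ion Proton platform from C57BL/6 wild-type littermates (*Tas1r3*+/+, WT) and from *Tas1r3*-/- mice (KO), which carry the germline Tas1r3tm1Csz allele backcrossed to C57BL/6 and so lack the taste receptor subunit in all cells. All mice were 5–6 weeks old at the start and were then fed for 10 weeks, either a normal diet (ND) with plain water or a Western diet (WD) of 60% high-fat pellets with a 30% sucrose solution to drink. The labels give 4 mice in each of the groups WT-ND, KO-ND, WT-WD and KO-WD, with males M1 and M2 and females F1 and F2 in each. The labels do not say whether the mice of a group shared a cage, so the p-values measure the spread between these samples.

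An inflammasome is a complex in which a sensor such as NLRP6 or NLRP3 recruits the adaptor ASC, the product of *Pycard*, which in turn activates caspase-1. Caspase-1 cleaves the precursors of IL-1β and IL-18 into secreted cytokines, and caspase-1 or caspase-11 (the product of *Casp4* in mice) cleaves gasdermin D, which then forms pores in the cell membrane. In the gut, IL-18 is made largely by epithelial cells and NLRP6 is most abundant there, whereas IL-1β comes mainly from myeloid cells.

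Of 16 deposited columns, 13 libraries were used. Both female columns of KO-ND equalled weighted means of the male columns (weights of 0.75 and 0.25 for F1, 0.625 and 0.375 for F2, relative tolerance 1e-06) in all but 17 and 18 of 59258 transcripts, none of them of a member, and were left out, so that KO-ND had 2 males only. Column KO-WD F2 behaved as a mean of F1 and another library (for 97.5% of 56242 transcripts, 2 times F2 minus F1 was a number of no more than 6 digits, against 64.4% to 69.9% with other columns in place of F1), so both columns were averaged to a single female library, KO-WD F. In KO-WD F, column F1 thus weighs more than that other library. The remaining columns implied 7003819 to 12384396 reads per library. The summed RPKM was 817011 to 819992 in the ND columns and 542371 to 685274 in the WD columns, a difference that cannot be told apart from the diet. The ND sums were nearly constant and the WD sums were not, and whether both diets were normalised alike was not tested. Values were therefore scaled between libraries for every test, and the RPKM printed below are as deposited. Deposited RPKM of ND and WD libraries are thus not comparable with each other without this scaling. *Tas1r3*, the targeted gene, lay at 1.80 to 2.95 RPKM in WT-ND, at 4.21 to 6.27 RPKM in WT-WD and at no more than 0.00452 RPKM in KO libraries.

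The promoters of *Il18* and *Il1b* are shown because these were the members whose levels differed most between the groups and varied most alike over the libraries. Both genes were located on GRCm38, *Il18* on the plus strand of chromosome 9 (50554827 to 50581840) and *Il1b* on the minus strand of chromosome 2 (129364570 to 129371139). The 250 bases before the RefSeq start (GRCm38.p6) are printed 5′ to 3′ on the strand of the gene, with capitals for the letters TATAAA on either strand.
Il18, chr9:50554450-50554699: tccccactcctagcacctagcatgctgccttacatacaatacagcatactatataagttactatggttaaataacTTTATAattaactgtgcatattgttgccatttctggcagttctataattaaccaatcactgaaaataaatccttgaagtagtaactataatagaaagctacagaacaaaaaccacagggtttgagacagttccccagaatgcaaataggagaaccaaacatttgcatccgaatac
Il1b, chr2:129371140-129371389: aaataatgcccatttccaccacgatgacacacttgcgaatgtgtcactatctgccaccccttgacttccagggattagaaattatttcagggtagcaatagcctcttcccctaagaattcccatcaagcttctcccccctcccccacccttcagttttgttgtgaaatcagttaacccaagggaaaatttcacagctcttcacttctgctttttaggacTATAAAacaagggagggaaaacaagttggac
In the *Il1b* window the match was on the strand of the gene and began 31 bases before the start. In the *Il18* window it was on the other strand and began 175 bases before the start. TATAAA occurred in 12.4% of 32851 such windows. A pattern of NF-κB sites, GGGA and CC with 4 bases between them on either strand, was in neither window and in 17.6% of all windows, and TTGCNNAA on either strand, a pattern of C/EBP sites, was in neither window and in 9.56% of all windows. Among the 13 windows of the 9 members that had one, the NF-κB pattern occurred in both *Casp4* windows, in 1 of 3 *Il1rn* windows and in 1 of 2 *Nlrp3* windows. TTGCNNAA occurred in the windows of *Il18bp* and *Pycard*, and those of *Nlrp6* and *Casp1* held none of these letters.

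The members spanned a wide range of levels per length in the ileum. In WT-ND the mean RPKM was 219 ± 73.2 (SD, n = 4) for *Gsdmd*, 203 ± 38.5 for *Pycard*, 79.2 ± 12.4 for *Nlrp6*, 49.3 ± 11.5 for *Casp1* and 24.1 ± 2.62 for *Casp4*. The cytokine *Il18* followed at 13.2 ± 6.80 RPKM, then the antagonists *Il18bp* at 4.37 ± 2.17 and *Il1rn* at 3.94 ± 1.25, and *Il1b* at 1.38 ± 0.623. *Nlrp3* was last at 0.235 ± 0.150 RPKM. *Gsdmd* and *Pycard* did not differ beyond their spread, and neither did *Il18bp* and *Il1rn*. *Nlrp3*, the sensor best known from macrophages, reached no more than 0.368 RPKM in any library, with 1 to 14 implied reads, and did not pass the filter for testing (1 RPKM or more in 2 or more libraries). The other 9 members passed it.

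**Figure D1:**
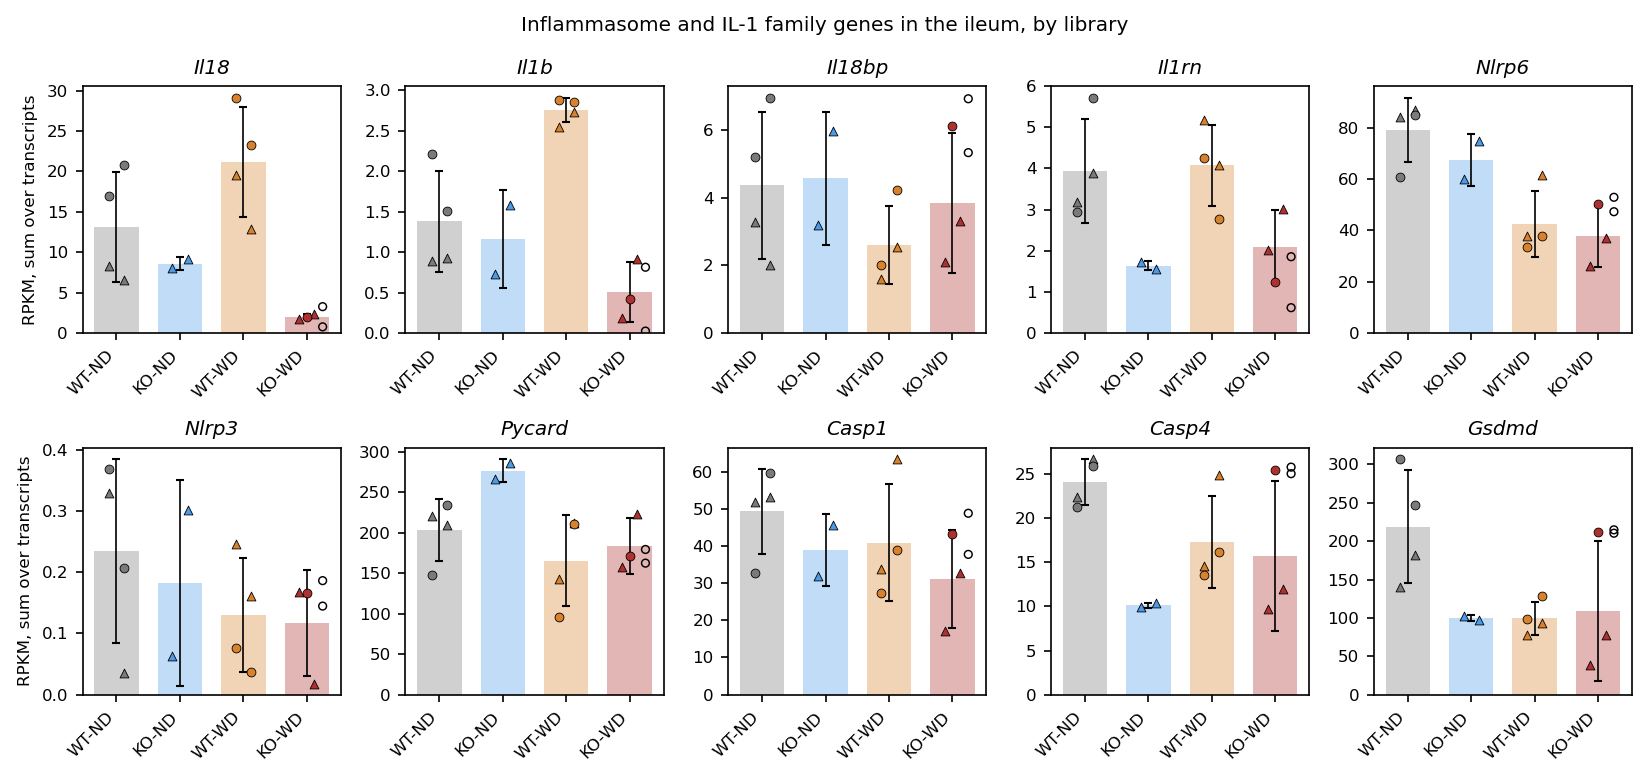
Deposited RPKM, summed over transcripts, of the 10 genes in each library, by group (WT or KO, normal diet ND or Western diet WD). Bars are means and error bars SD over the libraries used, triangles are males, filled circles females, and open circles the deposited columns KO-WD F1 and F2 behind the averaged KO-WD female library. The KO-WD libraries of *Il18* lie at 1.72 to 2.32 RPKM, under the lowest WT-WD library at 12.9 RPKM.

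To ask how the genotype bore on these genes under the WD, KO-WD was compared with WT-WD. *Il18*, the epithelial cytokine of the family, was at 19.6, 12.9, 29.1 and 23.2 RPKM in WT-WD M1, M2, F1 and F2. In KO-WD it was at 1.72 RPKM in M1, 2.32 in M2 and 2.03 in the averaged female library. All WT-WD libraries stood above all KO-WD libraries, and the separate female columns were at 0.781 (F1) and 3.28 (F2) RPKM. On the log2(scaled RPKM + 0.5) scale, on which all fold changes here are given, *Il18* was 7.91-fold lower in KO-WD (log2 fold change −2.98, SE 0.37, limma, Benjamini-Hochberg adjusted p = 0.0149 over 19042 genes). *Il1b*, the myeloid pyrogenic cytokine, was at 2.54, 2.73, 2.87 and 2.86 RPKM in WT-WD M1, M2, F1 and F2, and at 0.188, 0.918 and 0.419 RPKM in KO-WD M1, M2 and F. Its groups did not overlap either, and its log2 fold change of −1.76 (SE 0.30) did not pass the adjusted threshold (limma, adjusted p = 0.173). The low *Il1b* values rest on few reads: 2.70 in KO-WD M1, 18.0 in KO-WD M2 and 0.421 in the column KO-WD F1, against 39.0 to 53.3 in WT-WD.

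A call required a limma adjusted p under 0.01 and a change of at least 2-fold, and 0 of the 9 tested members met it on the WD, against 0.0105% of all 19042 genes. At an adjusted p under 0.05 alone, 1 of 9 members passed (*Il18*), against 0.0263% of all genes. At an unadjusted p under 0.05, 3 of 9 passed (*Il18*, *Il1b*, *Il1rn*), against 2.65%, and the same 3 had groups that did not overlap, against 2.84%. For *Il18*, *Il1b* and *Il1rn* the two-sided exact permutation p was 0.0571, the smallest that 3 against 4 libraries allow. The median log2 fold change of the 9 members was −0.10, beside −0.01 over all genes. Of the 9, 7 were below 0 and 2 above, where 52.3% of all genes were below 0. The 7 included *Nlrp6* (−0.06), *Gsdmd* (−0.07) and *Casp4* (−0.10), whose groups overlapped.

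The antagonists differed from each other. *Il1rn*, which encodes the IL-1 receptor antagonist, was at 5.19, 4.08, 4.25 and 2.78 RPKM in WT-WD and at 2.02, 3.02 and 1.24 RPKM in KO-WD. After scaling, the WT-WD libraries (4.02 to 5.5) stood above the KO-WD libraries (1.58 to 3.57), with a log2 fold change of −0.77 (SE 0.28, limma, unadjusted p = 0.0171, adjusted p = 1.00). With the most abundant *Il1rn* transcript alone the log2 fold change was 0.29. *Il18bp*, whose product binds and neutralises IL-18, overlapped between the groups, at 1.62 to 4.23 RPKM in WT-WD and 2.09 to 6.13 RPKM in KO-WD. Within a library, the ratio of *Il18* to *Il18bp* RPKM was 5.03 to 14.4 in WT-WD (median 8.80) and 0.331 to 0.823 in KO-WD (median 0.697). In WT-ND it was 2.53 to 3.29. The ratio of *Il1b* to *Il1rn* was 0.491 to 1.03 in WT-WD and 0.0930 to 0.339 in KO-WD, and its range in WT-ND, 0.236 to 0.752, overlapped with both. In KO-ND these ratios were 1.53 to 2.53 for *Il18* to *Il18bp* and 0.427 to 1.01 for *Il1b* to *Il1rn*. These ratios were formed after the values had been seen and were not tested.

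The sensor, adaptor, caspases and pore former overlapped between KO-WD and WT-WD. *Nlrp6*, an epithelial sensor, was at 33.4 to 61.7 RPKM in WT-WD and 26.3 to 50.1 RPKM in KO-WD. *Pycard* was at 95.8 to 212 RPKM in WT-WD and 157 to 223 RPKM in KO-WD, *Casp1* at 27.4 to 63.3 and 17.2 to 43.3 RPKM, *Casp4* at 13.5 to 25 and 9.76 to 25.4 RPKM. *Gsdmd* varied widely among KO-WD libraries, at 38.3, 77.2 and 213 RPKM in M1, M2 and F, and at 77.7 to 128 RPKM in WT-WD. The averaged female library was the highest of the KO-WD libraries in *Nlrp6*, *Casp1*, *Casp4*, *Gsdmd* and *Il18bp*. The 95% intervals of the log2 differences between the groups were −0.68 to 0.56 for *Nlrp6* and −1.13 to 0.98 for *Gsdmd*.

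**Figure D2:**
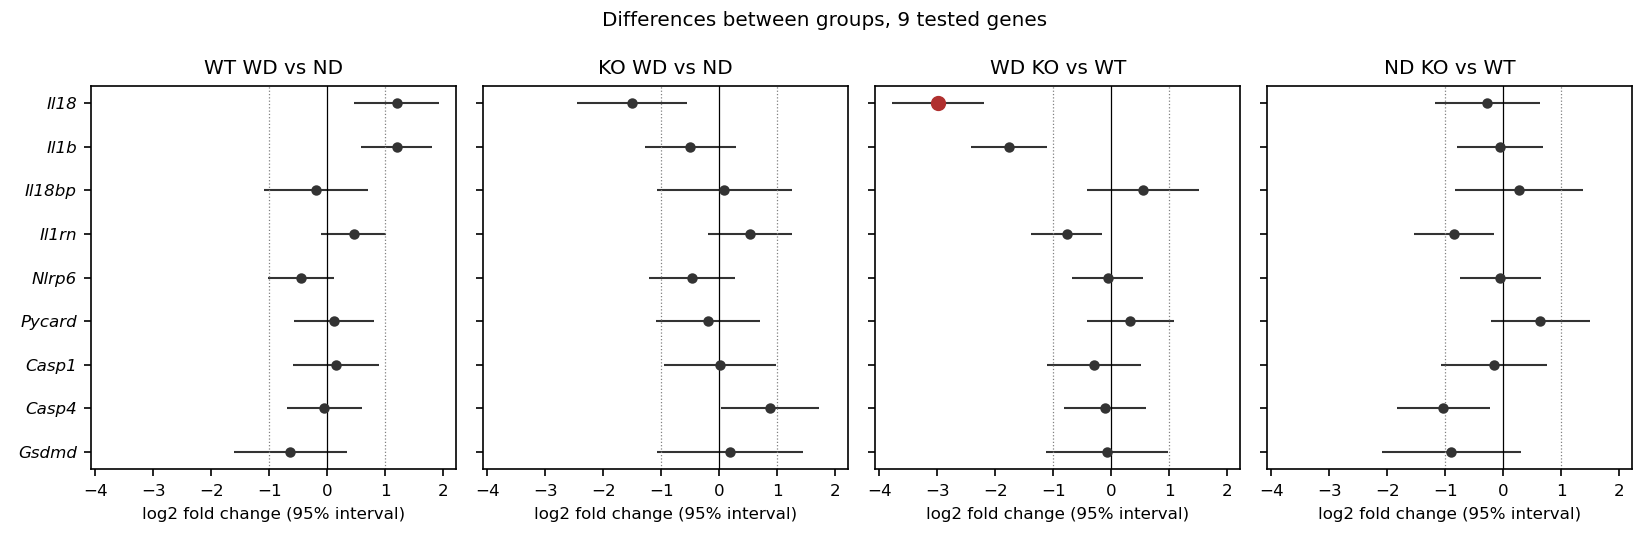
Log2 fold change of the 9 tested genes in 4 comparisons (WT and KO, WD against ND; WD and ND, KO against WT), with 95% intervals from limma. The dotted lines mark 2-fold, and the filled red point is the adjusted p under 0.05, which *Il18* alone reached, on the WD (−2.98).

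*Il18* had 4 transcripts in the table, and each was lower in every KO-WD column than in every WT-WD library. Il18-204 was at 7.40 to 21.4 RPKM in WT-WD and at 0.628 to 2.62 RPKM in the KO-WD columns. Il18-203 was at 4.33 to 6.10 RPKM and at 0.000547 to 0.759 RPKM. Il18-201 and Il18-202 had the same values in every column, 0.568 to 0.821 RPKM in WT-WD and 0.0280 to 0.0934 RPKM in KO-WD. Il1b-201, the only *Il1b* transcript, was at 2.54 to 2.87 RPKM in WT-WD and at 0.0254 to 0.918 RPKM in the KO-WD columns. These ranges are of deposited RPKM, and column KO-WD F2 is not independent of F1. The share of all transcripts that separate these columns was not computed.

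**Figure D3:**
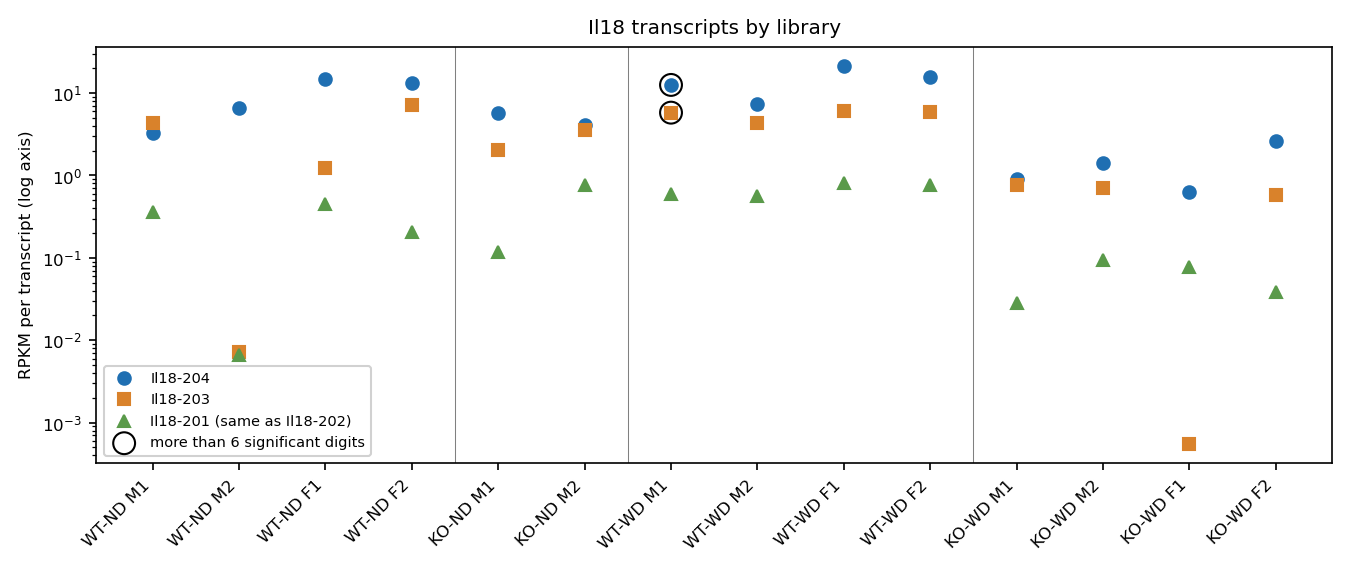
RPKM of the *Il18* transcripts in each column used (log axis), with vertical lines between the groups WT-ND, KO-ND, WT-WD and KO-WD. Circled points are written with more than 6 significant digits, and Il18-204 lies at 7.40 to 21.4 RPKM in WT-WD and at 0.628 to 2.62 RPKM in KO-WD.

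The file itself sets limits on both cytokines. Nearly all values were written with at most 6 significant digits, but 169 of 770354 values in the 13 libraries had more. Among the 455 member values, 3 did: Il18-203 and Il18-204 in WT-WD M1 and Il1b-201 in KO-WD M1. Such values occurred in 70 of the 19042 tested genes (0.368%) and in 5 of 5 genes past an adjusted p of 0.05 on the WD between genotypes (*Il18*, *Nfkb1*, *Nos2*, *Tas1r3*, *Tnf*; limma). With those values set to missing, the log2 fold change was −3.02 for *Il18* (limma adjusted p = 0.0689) and −1.46 for *Il1b* (adjusted p = 1.00). With the 2 affected *Il18* transcripts left out in all libraries, that of *Il18* was −1.67 (adjusted p = 1.00), from the low transcripts Il18-201 and Il18-202 alone, and no *Il1b* transcript remained. Each of these 2 low transcripts was at 0.568 to 0.821 RPKM in WT-WD and at 0.0280 to 0.0934 RPKM in the KO-WD columns. Those KO-WD values lie below the 0.5 added before the log2, which narrows the difference. The −1.67 thus does not show that the RPKM differed less in these transcripts. How the values with more than 6 digits arose was not tested.

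Since an RPKM of whole reads is a multiple of the value of 1 read, the reads behind each value could be recovered. The summed transcripts of *Il18* came to whole numbers (within 0.05 reads) in 6 of 6 ND libraries, at 66, 41, 139 and 208 reads in WT-ND M1, M2, F1 and F2 and at 84 and 61 reads in KO-ND M1 and M2. They came to whole numbers in 0 of 7 WD columns (KO-WD F1 standing for the females), with sums such as 189.5 reads in WT-WD M1 and 15.7 reads in KO-WD M1. Of 12493 genes with 0.5 to 400 reads in all 13 columns, 2 showed this pattern (0.0160%, *Il18* and *Prorsd1*), 3 showed its opposite and 5597 were whole in all columns. Over all genes in that range, 67.8% of the ND values and 68.1% of the WD values were whole. *Il1rn* was whole in 4 of 6 ND and 6 of 7 WD columns, *Nlrp3* in 4 of 6 and 7 of 7, *Il18bp* in 1 of 6 and 1 of 7, *Casp4* in 2 of 6 and 1 of 7, and *Il1b* in 3 of 6 and in 2 of the 6 WD columns with at least 0.5 reads. The tolerance and range were chosen after the values had been seen, and the cause was not tested.

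**Figure D4:**
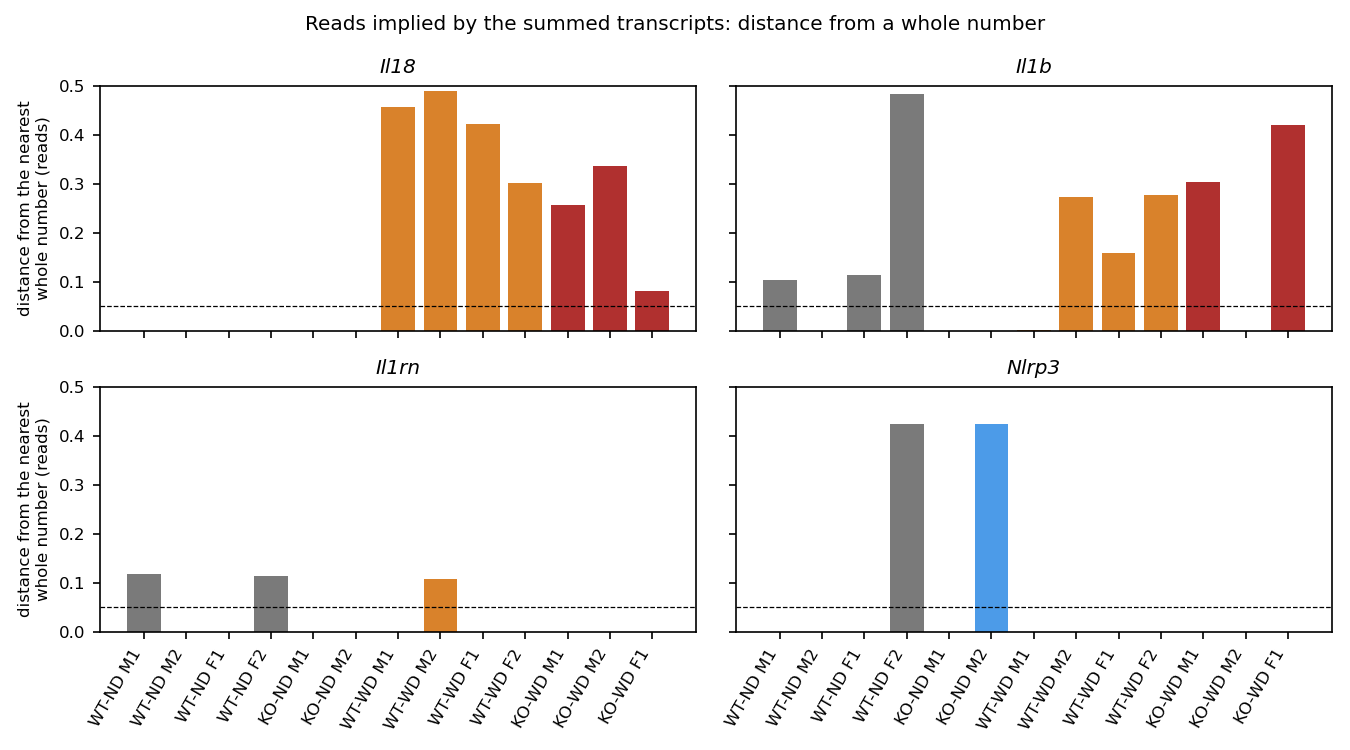
Distance of the implied reads from the nearest whole number (reads, 0 to 0.5) for *Il18*, *Il1b*, *Il1rn* and *Nlrp3*, by library, coloured by group. The dashed line is the tolerance of 0.05 reads, and *Il18* lies under it in all 6 ND libraries and above it in all 7 WD columns.

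Across 29 other ways of processing, the log2 fold change of *Il18* between KO-WD and WT-WD ran from −3.33 to −1.67, and its limma adjusted p was under 0.05 in 18 of them. With sex as a covariate it met the full call (−2.85, adjusted p = 0.00121). With the males alone it was −2.54 (adjusted p = 0.128), and with the female columns separated into 2 libraries it was −2.89 (adjusted p = 0.0568). Leaving out WT-WD M1 or F1, or KO-WD M1, M2 or F, gave *Il18* adjusted p-values of 0.0589, 0.0884, 0.151, 0.0781 and 0.0508. For *Il1b* the log2 fold change ran from −2.35 to −1.37 over 28 alternatives, with a limma adjusted p under 0.05 in 1 of them (0.0394, all 16 columns). That setting counts columns derived from others as separate mice.

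**Figure D5:**
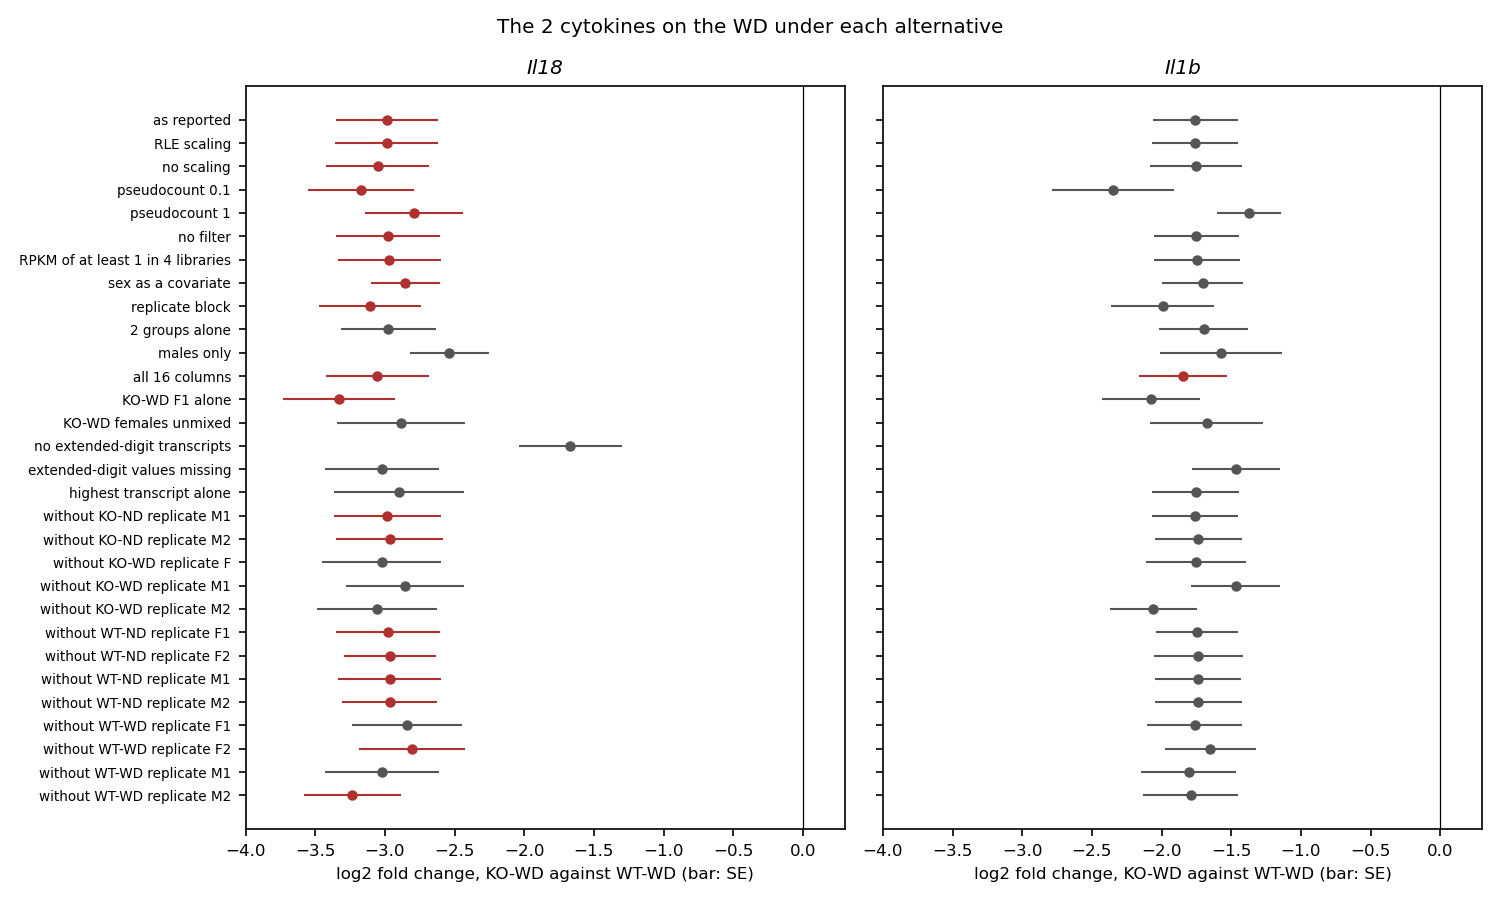
Log2 fold change of *Il18* and *Il1b*, KO-WD against WT-WD, as reported and under each alternative, with bars of 1 SE. Red points have a limma adjusted p under 0.05, and all points lie below 0. *Il18* is nearest to 0 at −1.67 when its transcripts with more than 6 digits are left out. That value comes from low transcripts and is narrowed by the 0.5 added before the log2.

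To ask how the WD bore on these genes in WT mice, WT-WD was compared with WT-ND. *Il18* was at 8.34, 6.62, 16.9 and 20.8 RPKM in WT-ND M1, M2, F1 and F2. Its log2 fold change was 1.20 (SE 0.34, limma, unadjusted p = 0.00390, adjusted p = 0.144). After scaling the groups overlapped, with WT-ND F2 (16.7) above WT-WD M2 (12.8). With sex as a covariate the log2 fold change of *Il18* was the same and its limma adjusted p was 0.0455. In both diets the WT females exceeded the WT males, with 16.9 and 20.8 against 6.62 and 8.34 RPKM on the ND. *Il1b* was at 0.890, 0.921, 2.21 and 1.5 RPKM in WT-ND, and every WT-WD library was higher. Its log2 fold change was 1.20 (SE 0.28, limma, unadjusted p = 0.000990, adjusted p = 0.101), and the exact permutation p of 0.0286 was the smallest that 4 against 4 libraries allow.

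No member was called in WT mice, against 0.00525% of all genes. At an unadjusted p under 0.05, 2 of 9 passed (*Il18* and *Il1b*), against 15.5% of all genes, and 1 of 9 (*Il1b*) had groups that did not overlap, against 10.5%. Among the others, *Nlrp6* lay at 60.7 to 87.1 RPKM in WT-ND and 33.4 to 61.7 RPKM in WT-WD, and *Gsdmd* at 140 to 307 and 77.7 to 128 RPKM, as deposited. Without scaling, the median of all genes was −0.38 on the log2 scale in this comparison, and relative to the scaled libraries neither gene passed (*Nlrp6* limma unadjusted p = 0.110, *Gsdmd* 0.182). The unscaled log2 fold change was 0.75 for *Il18* and 0.84 for *Il1b*.

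In KO mice the WD was compared with the ND in 3 against 2 libraries, of which the ND libraries were both male. *Il18* was at 8.07 and 9.15 RPKM in KO-ND M1 and M2, above all KO-WD libraries (log2 fold change −1.51, SE 0.44, limma, unadjusted p = 0.00457, adjusted p = 0.798). In males alone it was −1.55. *Il1b* was at 0.733 and 1.58 RPKM in KO-ND and overlapped with KO-WD (−0.50, SE 0.36, limma, unadjusted p = 0.192). *Casp4* was at 9.92 and 10.3 RPKM in KO-ND and at 9.76, 12 and 25.4 RPKM in KO-WD. After scaling its KO-WD libraries (11.5 to 32.5) stood above both KO-ND libraries (8.33 and 10.3), with a log2 fold change of 0.88 (SE 0.39, limma, unadjusted p = 0.0426, adjusted p = 0.901). In males alone it was 0.44 for *Casp4* (limma, unadjusted p = 0.155), and it was also 0.44 without KO-WD F, 0.49 without scaling and 0.46 with the most abundant transcript alone.

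No member was called in KO mice, against 0.0% of all genes (0 of 19042). At an unadjusted p under 0.05, 2 of 9 passed (*Il18* lower, *Casp4* higher), against 5.49%. The same 2 had groups that did not overlap, against 20.9%. The smallest two-sided exact permutation p that 3 against 2 libraries allow is 0.200, and *Il18* and *Casp4* were at it. *Il18bp* (3.19 and 5.97 RPKM in KO-ND), *Il1rn* (1.72 and 1.56), *Nlrp6* (60.2 and 74.7), *Pycard* (267 and 287), *Casp1* (32.0 and 45.7) and *Gsdmd* (103 and 97.0) all overlapped with KO-WD after scaling.

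On the ND, the genotypes were compared in 2 KO-ND males and 4 WT-ND libraries of both sexes. *Il18* and *Il1b* overlapped between the genotypes, with log2 fold changes of −0.28 (SE 0.42) and −0.06 (SE 0.34), and in males alone these were 0.29 and 0.24. *Casp4*, the non-canonical caspase, was at 22.4, 26.7, 21.3 and 25.9 RPKM in WT-ND and at 9.92 and 10.3 RPKM in KO-ND (log2 fold change −1.03, SE 0.37, limma, unadjusted p = 0.0157, adjusted p = 0.895). *Il1rn* was at 3.19, 3.90, 2.95 and 5.71 RPKM in WT-ND and at 1.72 and 1.56 RPKM in KO-ND (−0.85, SE 0.32, limma, unadjusted p = 0.020, adjusted p = 0.895). With its most abundant transcript alone, *Il1rn* was at 0.12. *Gsdmd* was lower in both KO-ND libraries (103 and 97.0 RPKM) than in WT-ND (140, 183, 307 and 247 RPKM) and *Pycard* was higher (267 and 287 against 147 to 234 RPKM), with log2 fold changes of −0.89 (SE 0.55) and 0.64 (SE 0.39) and limma unadjusted p-values of 0.130 and 0.129.

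No member was called on the ND, against 0.0% of all genes (0 of 19042). At an unadjusted p under 0.05, 2 of 9 passed (*Casp4* and *Il1rn*), against 4.73%, and 4 of 9 had groups that did not overlap, against 22.0%. The smallest two-sided exact permutation p that 2 against 4 libraries allow is 0.133. The median log2 fold change of the 9 members was −0.16, beside 0.01 over all genes.

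The difference between these genotype effects was tested as an interaction of genotype and diet. It was −2.71 on the log2 scale for *Il18* (SE 0.55, limma, unadjusted p = 0.000331, adjusted p = 1.00) and −1.70 for *Il1b* (SE 0.46, limma, unadjusted p = 0.00281, adjusted p = 1.00). In males alone it was −2.83 for *Il18* and −1.81 for *Il1b*. No member was called for the interaction, against 0.0% of all genes (0 of 19042), and 2 of 9 had an unadjusted p under 0.05 (*Il18* and *Il1b*), against 1.43%. The smallest interaction adjusted p of *Il18* over 28 alternatives was 0.119.

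Over the 13 libraries, which share these 4 groups and 1 scaling, the genes with log2 values most like those of *Il18* were *Tnf* (Pearson r = 0.92, Spearman rho = 0.97), *Nfkb1* (0.89 and 0.84) and *Il1b* (0.88 and 0.87). Those most like *Il1b* were *Tnf* (0.93 and 0.88), *Il18* (0.88 and 0.87) and *Arl14* (0.84 and 0.79). Apart from *Arl14*, all of these held values with more than 6 digits. No partner of the other tested members held such values. *Il18bp* was most like *Atpaf2* (r = 0.91, rho = 0.93), *Il1rn* was most like *Gm8291* (0.88 and 0.86) and *Pycard* was most like *Gm45453* (0.94 and 0.87). *Casp1* was most like *Adgrg7* (r = 0.99, rho = 0.99), *Atp11b* (0.96 and 0.96) and *Tom1l1* (0.95 and 0.98). *Gsdmd* was most like *Gm7353*, *Neu1* and *Cx3cl1* (r of 0.97 for each), *Nlrp6* was most like *Cant1*, *Dnmbp* and *Itpr3* (r of 0.97, 0.97 and 0.96), and *Casp4* was most like *Erbin*, *Socs4* and *March6* (0.96, 0.95 and 0.94). Between members, after *Il18* and *Il1b*, the highest r were 0.74 for *Nlrp6* and *Casp1*, 0.72 for *Casp1* and *Casp4*, and 0.67 for *Casp4* and *Gsdmd*. No p-values are given for these correlations.

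Other genes of the pathway were followed with a list of 58 ligands, receptors, sensors, regulators, pyroptosis genes and signalling adaptors, of which 50 were in the table and 43 were tested. None was called in any of the 5 comparisons. In WT mice 4 of 43 were higher and 2 lower on the WD at an unadjusted p under 0.05, where 15.5% of all genes passed in either direction, and the list median was 0.05. Those higher included *Nek7*, a licensing factor of NLRP3 (log2 fold change 1.28, limma adjusted p = 0.138), and *Il1a*, which encodes the alarmin IL-1α (1.26, adjusted p = 0.0971). The value of *Il1a* depended on the pseudocount, at 2.40 with 0.1 and 0.83 with 1. *Il1a* passed the filter only through WT-WD (0.454 to 1.53 RPKM), with at most 0.352 RPKM in WT-ND, 0.508 in KO-ND and 0.202 in KO-WD. Its differences from WT-WD were thus tied to the filter and are no independent support. The 2 lower genes were *Irak2*, a kinase of IL-1 receptor signalling (−0.80, limma adjusted p = 0.236), and *Sigirr*, an inhibitory receptor of the family (−0.60, adjusted p = 0.305). With the most abundant transcript alone these were −1.48 for *Irak2* and −0.34 for *Sigirr*, and without scaling −1.25 and −1.06. In KO mice none passed in either direction.

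On the WD, 1 of 43 was lower in KO mice and none higher at an unadjusted p under 0.05, where 2.65% of all genes passed, with a list median of −0.21 beside −0.01 over all genes. It was *Il1a* (log2 fold change −1.17, SE 0.30, limma adjusted p = 1.00), at 0.938 ± 0.458 RPKM (SD, n = 4) in WT-WD and 0.136 ± 0.0569 RPKM (SD, n = 3) in KO-WD. *Il1a* was the only tested gene of the list that held values with more than 6 digits, and the only one past an unadjusted p of 0.05 for the interaction (−1.52, limma adjusted p = 1.00). With a pseudocount of 0.1 these *Il1a* values were −2.04 and −2.98, and with 1 the interaction was −0.99. Since *Il1a* passed the filter through WT-WD alone, these differences were tied to the filter too. On the ND, 1 of 43 was higher and 4 were lower in KO mice at an unadjusted p under 0.05, where 4.73% of all genes passed. *P2rx7*, the ATP receptor that triggers NLRP3, was higher (0.90, limma adjusted p = 0.895), and the epithelial sensor *Nlrp9b* (−1.65) and the apoptotic caspase *Casp8* (−0.93) led the lower genes, with the same adjusted p of 0.895.

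Because whole ileum was sequenced, fewer cells of a type and less RNA per cell cannot be told apart. The enterocyte markers (7 of 7 in the table) summed to 5514 to 8697 scaled RPKM in WT-ND, 2749 to 12202 in WT-WD and 1315 to 5741 in KO-WD, and none of them, *Fabp6* and *Slc10a2* of the ileal enterocyte included, was at 0 in any library. Macrophage and monocyte markers (8 of 8) summed to 128 to 239 in WT-WD and 85.0 to 181 in KO-WD. Of 8 neutrophil markers, 3 were in the table, summing to 3.48 to 5.52 in WT-WD, 1.68 to 3.78 in KO-WD and 6.38 to 9.17 in WT-ND, with *S100a9* at 0 in at least 1 library. Dendritic cell markers (5 of 5) summed to 5.37 to 16.1 in WT-WD and 5.53 to 10.8 in KO-WD. T cell markers (6 of 6) summed to 10.1 to 23.8 and 8.61 to 17.1, and B cell markers (5 of 5) to 18.3 to 42.6 and 12.2 to 46.0. Each of these immune lists overlapped between WT-WD and KO-WD.

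Paneth cell markers (5 of 5) summed to 7478 to 18790 in WT-WD and 25634 to 39067 in KO-WD, and enteroendocrine markers (5 of 5) to 71.2 to 123 and 59.9 to 69.0, so that both lists separated these groups. On the ND the Paneth sums were 8963 to 27687 in WT-ND (median 18352) and 25388 to 51079 in KO-ND (median 38234). The enteroendocrine sums were 48.1 to 98.0 in WT-ND and 61.3 to 72.5 in KO-ND. Goblet cell (6 of 6), tuft cell (4 of 4) and smooth muscle (6 of 6) markers overlapped between WT-WD and KO-WD. The part of these lists in the differences of the cytokines was not tested.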

How the data were processed

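Total RNA of the terminal ileum was extracted by the authors, and the mRNA taken from it was depleted of ribosomal RNA and sequenced. Reads were aligned by STAR to GRCm38 (mm10) within the Partek Flow software, and counted over Ensembl transcripts. The deposited values were taken as RPKM per transcript (reads divided by transcript length and a library total). Whether the ND and WD columns hold the same unit was not tested. The deposited table is titled as raw gene counts, but its values are not whole numbers. From them, RPKM were summed per gene, genes with at least 1 RPKM in at least 2 of 13 libraries were kept (19042), and library factors came from trimmed means of log2 ratios (30% of ratios and 5% of levels trimmed). Values of log2(scaled RPKM + 0.5) were fitted in limma 3.58.1 (R 4.3.3) with a trend and all 4 groups in 1 model. Calls required a Benjamini-Hochberg adjusted p under 0.01 and 2-fold. Single genes had two-sided exact permutation tests (scipy 1.17.1). The fit had been run on simulated data with known changes. Depth (7003819 to 12384396 implied reads) limits the low genes: 1 read on 1 kb is 0.0692 to 0.139 RPKM.

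The members, lists and rules were chosen with earlier results of these data known. Named genes are all members, pathway genes past the call or else up to 2 per direction with the largest change at an unadjusted p under 0.05, and the 3 genes most correlated with a member. Positions come from GENCODE M21 and promoters from RefSeq (9 of 10 members). Alternatives changed the scaling, pseudocount, filter, covariates, samples, related columns, many-digit values and transcripts.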

Additional observations from a re-analysis of the deposited data

Results flagged for a closer look

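*Il18* was flagged because on scaled log2 values all WT-WD libraries lay above the WT-ND mean and all KO-WD libraries below the KO-ND mean (as deposited, WT-WD M2 at 12.9 RPKM was below the WT-ND mean of 13.2). The interaction of genotype and diet was −2.71 on the log2 scale (SE 0.55, limma, unadjusted p = 0.000331, adjusted p = 1.00). Library WT-ND F1 stood apart from the other WT-ND libraries in *Pycard* (147 RPKM, against 210 to 234) and in *Casp1* (32.8 RPKM, against 51.7 to 59.5). With 18 groups of 4 libraries screened, chance flags about 1 in 20. In WT mice the WD effect on the log2 scale was 0.11 for *Pycard* and 0.15 for *Casp1*, and without WT-ND F1 it was −0.09 for each.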

How the results depend on the processing

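No member was called in any comparison as reported, nor under any alternative in WT mice, in KO mice, on the ND or for the interaction. Between KO-WD and WT-WD, 1 member (*Il18*) was called with no scaling, sex as a covariate, all 16 columns, or adjusted p under 0.05 with no minimum fold. The setting with all 16 columns counts columns derived from others as separate mice, so its p-values are too small. Leaving out each of the 13 libraries in turn gave 0 to 1 (1 without WT-ND F2). In the pathway list, 1 gene (*Irak2*) was called in WT mice with no scaling and 0 otherwise. On the ND, *Il18* turned from −0.28 to 0.11 (sex as a covariate), 0.030 (replicate block), 0.29 (males only) and 0.41 (no transcripts with more than 6 digits), and *Il1b* from −0.06 to 0.10, 0.0030 and 0.24 under the first 3, with −0.30 to 0.19 when each library was left out. *Il1rn* turned to 0.29 (WD) and 0.12 (ND) with its highest transcript alone. The causes were not tested. Among 29 other member differences, 18 changed sign under some alternative, and 1 reached an adjusted p under 0.05 (*Nlrp6* in WT mice, no scaling, −0.91, limma adjusted p = 0.0217). *Il18* also reached one in WT mice with sex as a covariate (limma adjusted p = 0.0455) and in KO mice with all 16 columns (0.0439, derived columns counted as mice).

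Between libraries with the same sex and number, correlations of deviations from the group means were −0.20 to 0.57 (median 0.07). Between the others they were −0.63 to 0.63 (median −0.03). Across diets in WT mice the same-number values were −0.01 (M1), 0.28 (M2), 0.47 (F1) and 0.30 (F2). Across genotypes on the WD they were 0.57 (M1), 0.42 (M2) and −0.14 (WT-WD F1 with KO-WD F). These values do not settle whether such libraries were paired. A replicate block gave 0 called members in each comparison. KO-ND has males only, so sex and genotype cannot be told apart on the ND beyond the males. Low genes are limited by depth.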

Other observations

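The library implied by 2 times KO-WD F2 minus F1, of whose values 88.1% came to whole reads within 0.02 reads (8.98% for F2 itself), was at 5.77 RPKM for *Il18*, 1.60 RPKM for *Il1b* and 3.09 RPKM for *Il1rn*. For *Il18* this stood above the other KO-WD libraries (0.781 to 2.32 RPKM) and below WT-WD (12.9 to 29.1 RPKM). For *Il1b* it also stood above the other KO-WD libraries (0.0254 to 0.918 RPKM) and below WT-WD (2.54 to 2.87 RPKM). For *Il1rn* it lay within the deposited range of WT-WD (2.78 to 5.19 RPKM). The difference in *Il18* between the WD groups was −2.89 on the log2 scale with the implied library and F1 in place of KO-WD F, the mean of columns F1 and F2.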
